A study of Homo sapiens with 6 samples.

Results

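The genes described here are the membrane progestin receptors of the PAQR family (PAQR5, PAQR6, PAQR7, PAQR8 and PAQR9), PAQR3 and PAQR4, which share the PAQR fold, and the progesterone receptor membrane components PGRMC1 and PGRMC2. They were chosen as every probe set whose platform annotation names 1 of these 9 genes, after PAQR6 had ranked among the higher genes in an earlier look at the same arrays. Of the 9 genes, 8 were named by 13 probe sets, out of 54675 probe sets on the array and 19775 genes in all. PGRMC1 was named by no probe set in the annotation used here and was not analysed here. PAQR3 and PAQR4 are not established progesterone receptors, so the name membrane progestin receptor fits 5 of the 8 measured genes.

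RNA came from the established human cell line NTERA2/D1, a testicular teratocarcinoma with the features of pluripotent embryonal carcinoma cells. Cells were transfected 24 h after plating with siRNA against VAMP7 (knockdown, 3 arrays) or with a nonspecific scrambled siRNA (control, 3 arrays), and RNA was collected 72 h later. Both groups carried a transfected siRNA and grew in medium without phenol red, with fetal bovine serum. The line was 1 line, no untransfected cells were among the samples, and the titles call the replicates biological without saying whether they were separate cultures or days, so how much of the spread between arrays is technical is not known. The titles number the knockdown replicates 1 to 3, as used here, while the descriptions of all 3 carry the number 1.

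Progesterone acts slowly through its nuclear receptor PGR and rapidly through receptors at the cell surface. PAQR proteins cross the membrane several times and belong with the adiponectin receptors, and those that bind progestins act through G proteins and cyclic AMP. The PGRMC proteins are unrelated in structure: they carry a cytochrome b5-like domain that binds haem, partner cytochrome P450 enzymes and take part in haem transport and cholesterol handling. In the reproductive tract, membrane progestin receptors are best known for oocyte maturation and sperm motility, first described in fish.

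The bases upstream of 2 of the genes are shown because PAQR6 was the gene whose groups lay furthest apart and PGRMC2 the one whose groups lay closest together. Each run covers the 250 bases before the gene's start in RefSeq (GRCh38.p14, 5′ to 3′ on the gene's own strand), with CG dinucleotides in capitals.
PAQR6, chr1:156248057-156248306, minus strand: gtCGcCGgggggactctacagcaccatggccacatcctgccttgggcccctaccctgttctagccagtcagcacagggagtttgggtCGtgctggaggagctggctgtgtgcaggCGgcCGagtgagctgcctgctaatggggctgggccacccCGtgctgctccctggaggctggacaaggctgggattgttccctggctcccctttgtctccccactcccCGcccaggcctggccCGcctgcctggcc
PGRMC2, chr4:128287814-128288063, minus strand: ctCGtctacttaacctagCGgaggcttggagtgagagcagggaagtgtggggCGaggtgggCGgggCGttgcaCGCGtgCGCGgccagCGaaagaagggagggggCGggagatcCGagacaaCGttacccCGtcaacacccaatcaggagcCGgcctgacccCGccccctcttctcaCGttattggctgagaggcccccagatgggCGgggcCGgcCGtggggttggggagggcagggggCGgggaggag
The PAQR6 run held 8 CG dinucleotides and 68.0% G or C, against 21 and 68.4% in the PGRMC2 run, and 45.9% of the 35116 promoters of the same table held 8 or fewer. The runs of PAQR4 (31), PAQR9 (26 and 33 at its 2 starts) and PGRMC1 (27) held more than the table's median of 11. The half-site AGAACA of progesterone-type response elements, searched on both strands, occurred once before PAQR6 and in none of the other 5 runs, and 12.4% of all promoters held it. The oestrogen-type half-site GGTCA occurred once before PGRMC2 and in none of the others, and 32.7% of all promoters held it. PAQR3, PAQR5, PAQR7 and PAQR8 had no promoter in the table and were not searched. These matches describe letters only, and the arrays carry no measure of binding.

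Values are the deposited linear intensities, whose mean after leaving out 2% of values at each end was 500.07 on every array. Intensities of different probe sets are not comparable with each other, so each gene is compared with itself across arrays. Fold changes are differences of mean log2(intensity + 50), knockdown minus control, with the SE and 95% interval of a limma fit across all 19775 genes, and they understate the change of dim genes. VAMP7, the targeted gene, encodes a SNARE of late endosomal and lysosomal vesicles. It fell to 153.6 ± 19.8 in knockdown, against 2615 ± 127 in control (SD, n = 3; log2 fold change -3.71, SE 0.11, adjusted p = 8.65e-05 in limma). Limma called 0 genes higher (0% of those tested, with 718 higher at an unadjusted p under 0.05) and 1 gene lower, VAMP7 itself (0.00506%, with 599 lower at an unadjusted p under 0.05). Knockdown replicate 1 stood apart: its correlation with the remaining 5 arrays averaged 0.9879, where the same average was 0.9900 to 0.9910 for each of those. All 8 measured pluripotency markers read above the median intensity of every array, as did 4 of 6 fibroblast, 3 of 6 endothelial, 3 of 5 neuronal and 0 of 5 leukocyte markers, with COL1A1, VWF and TUBB3 among those of other types.

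None of the 8 measured genes passed the adjusted threshold in limma, where 0.00506% of all genes did. PAQR6 was higher in knockdown, PAQR5 lower, and the other 6 genes overlapped between the groups. All knockdown arrays lay above all control arrays for 6.68% of the 19775 genes and below them for 6.29%. Since the genes were chosen from this same contrast, these positions are a description and carry no test. Log2 fold changes were above 0 for 4 of the 8 genes, with a median of 0.01, and for 50.8% of all genes, with a median of 0.0030. The count of 4 became 2 with median centring of the arrays and 6 with probe sets averaged per gene.

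**Figure D1:**
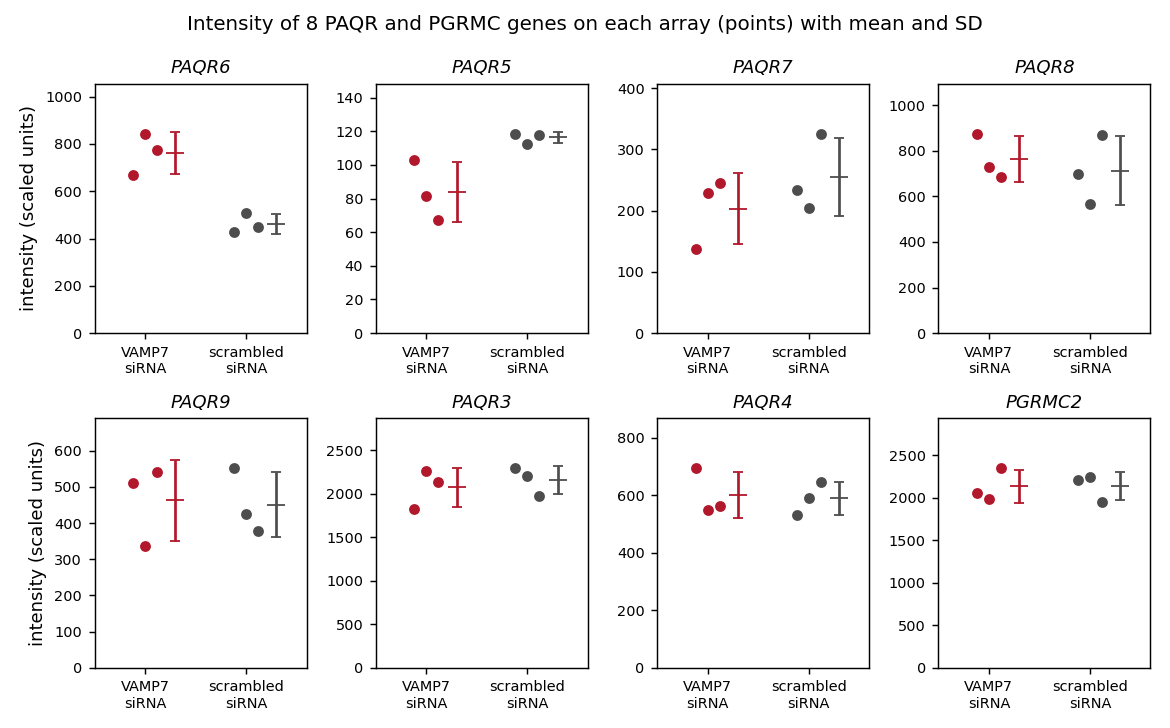
Deposited intensity (vertical axes from 0, scaled units, a separate scale for each gene) of the probe set that stands for each gene, with knockdown arrays in red on the left and control arrays in grey on the right, and bars for mean and SD (n = 3 each). The PAQR6 points lie between 669 and 844 in knockdown and between 426 and 509.7 in control, and PAQR5 lies the other way round without overlap, while the groups of the other 6 genes overlap.

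PAQR6 (membrane progesterone receptor delta, best known from brain) had the largest difference of the 8. Its probe set, 219236_at, read 669, 844 and 776 on the knockdown arrays, against 426, 509.7 and 450.4 on the control arrays. The lowest knockdown array lay above the highest control array. The gap was wider than the range within the control group but narrower than the range within the knockdown group. Means were 763 ± 88.1 in knockdown and 462 ± 43.0 in control (SD, n = 3 each), a ratio of 1.65. On the log2 scale the difference was 0.66 (SE 0.12, 95% interval 0.38 to 0.95). Of the 9888 genes at or above the signal of the median gene, 5 (0.0506%), PAQR6 included, had a log2 fold change at least as high, and among all genes 62 did (0.314%). PAQR6 was chosen for this difference, it has no second probe set on the array, and no other samples were at hand to repeat it.

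In the RefSeq table of GRCh38.p14, PAQR6 overlaps the read-through gene PMF1-BGLAP and lies beside SMG5, which were looked at after the PAQR6 values had been seen. The probe set that names PMF1-BGLAP, PMF1 and BGLAP together read 1250 ± 190 in knockdown and 1232 ± 76.9 in control (SD, n = 3; log2 fold change 0.01, SE 0.13). PMF1, a kinetochore protein, read 2437 ± 169.9 in knockdown and 2726 ± 280.1 in control (SD, n = 3), a log2 fold change of -0.16 (SE 0.12). SMG5, a factor of nonsense-mediated decay, had a log2 fold change of 0.06 (SE 0.16). No probe set names PMF1-BGLAP or BGLAP alone, so neither was measured by itself. The part of these neighbours in the PAQR6 difference was not tested.

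PAQR5 (membrane progesterone receptor gamma, best known from kidney) was lower in knockdown and was the only gene of the 8 below the signal of the median gene. Probe set 242871_at read 103, 81.5 and 67.4 in knockdown, against 119, 112 and 118 in control. The control arrays lay close together and the knockdown arrays were spread out, all of them lower. Means were 83.9 ± 17.9 in knockdown and 116 ± 3.50 in control (SD, n = 3), a ratio of 0.721 and a log2 fold change of -0.32 (SE 0.12, 95% interval -0.60 to -0.04), and 4.59% of all genes had a value as low. Its second probe set, 220333_at, read below the array median on all 6 arrays, from 6.27 to 27.5 in knockdown and from 4.19 to 17.9 in control, with a log2 fold change of 0.01 (SE 0.16). With the mean of both probe sets the groups of PAQR5 overlapped and its log2 fold change was -0.15.

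PAQR7 (membrane progesterone receptor alpha, the founding member of the class) read 136, 228 and 244 in knockdown on its only probe set, 242123_at, against 234, 205 and 326 in control. Knockdown replicate 1 was the lowest of the 6 arrays and control replicate 3 the highest, and the other 4 arrays were mixed. Its log2 fold change came to -0.28 (SE 0.22, 95% interval -0.79 to 0.24), the widest interval of the 8 genes. It was -0.07 without knockdown replicate 1 and -0.12 without control replicate 3.

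PAQR8 (membrane progesterone receptor beta, found in brain and in oocytes) was read by a pair of probe sets. Probe set 227626_at read 877, 728 and 687 in knockdown, against 699, 568 and 869.5 in control, a log2 fold change of 0.11 (SE 0.17, 95% interval -0.29 to 0.50). Probe set 226423_at read 505, 423 and 318 in knockdown, against 382, 454 and 401 in control, a log2 fold change of -0.0079 (SE 0.17). Neither separated the groups, and the sign of the first turned to -0.04 without control replicate 2.

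PAQR9 (membrane progesterone receptor epsilon) read 512, 335 and 542 in knockdown on probe set 1558322_a_at, against 552, 424 and 379 in control. Its log2 fold change was 0.02 (SE 0.20, 95% interval -0.45 to 0.50), smaller than the spread within either group. The second probe set, 1560467_at, read between 0.823 and 30.6 in knockdown and between 2.72 and 13.8 in control, below the array median throughout. Of the 5 progestin-binding PAQR genes, then, 1 was higher without overlap, 1 was lower without overlap and 3 overlapped. Of all genes, 6.68% were higher without overlap and 6.29% lower. The higher one, PAQR6, was chosen for its difference, and the lower one, PAQR5, overlapped when its probe sets were averaged.

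**Figure D2:**
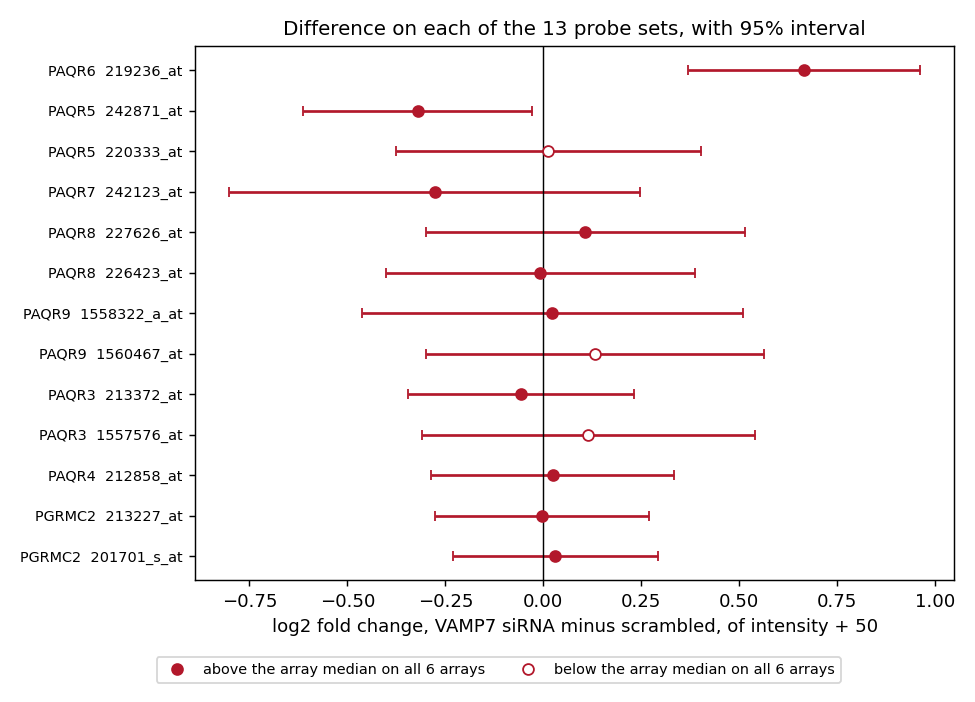
Log2 fold change (horizontal axis, knockdown minus control, on intensity + 50) of each of the 13 probe sets with its 95% interval from a limma fit of all probe sets, filled where the probe set read above the array median on all 6 arrays and open where it read below on all 6. The PAQR6 interval lies farthest from 0, that of the brighter PAQR5 probe set ends just below 0, and the other 11 include 0.

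PAQR3, a PAQR protein of the Golgi, read 1829, 2259.9 and 2134 in knockdown on probe set 213372_at, against 2293, 2200.1 and 1979 in control. Its log2 fold change came to -0.06 (SE 0.12, 95% interval -0.33 to 0.22). Its other probe set read at most 31.1 on any array. PAQR4, a less studied PAQR protein, read 693, 548 and 561 in knockdown on its only probe set, 212858_at, against 529.5, 591 and 645 in control. Its log2 fold change was 0.02 (SE 0.13, 95% interval -0.27 to 0.32). In the RefSeq table PAQR4 overlaps PKMYT1, an inhibitory kinase of CDK1, which read 806 ± 94.9 in knockdown and 662 ± 49.3 in control (SD, n = 3; log2 fold change 0.26, adjusted p = 0.754 in limma).

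PGRMC2, a haem-binding protein of the endoplasmic reticulum and nuclear envelope that passes haem to the nucleus, had the smallest difference. Probe set 213227_at read 2060.0, 1988 and 2345 in knockdown, against 2206.5, 2247 and 1950.2 in control. Means were 2131 ± 189 in knockdown and 2135 ± 161 in control (SD, n = 3), a ratio of 0.998 and a log2 fold change of -0.0032 (SE 0.11, 95% interval -0.26 to 0.26). Its second probe set, 201701_s_at, gave 0.03 (SE 0.11), from 879.5, 1050.0 and 966 in knockdown, against 914, 1009 and 905 in control. For PGRMC2, PAQR3, PAQR4, PAQR8 and PAQR9, 5 genes in all, the interval held no change of 1.5-fold (0.58 on the log2 scale) in either direction. It held one for PAQR5 and PAQR7 on the lower side and for PAQR6 on the higher side. Under the other settings 3 to 6 genes had such an interval, and PAQR3, PAQR4 and PGRMC2 had one in every setting. PAQR8 and PAQR9 had none at an offset of 0 or without knockdown replicate 2, knockdown replicate 3, control replicate 1 or control replicate 3, and PAQR9 alone had none at an offset of 16 or without knockdown replicate 1 or control replicate 2.

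**Figure D3:**
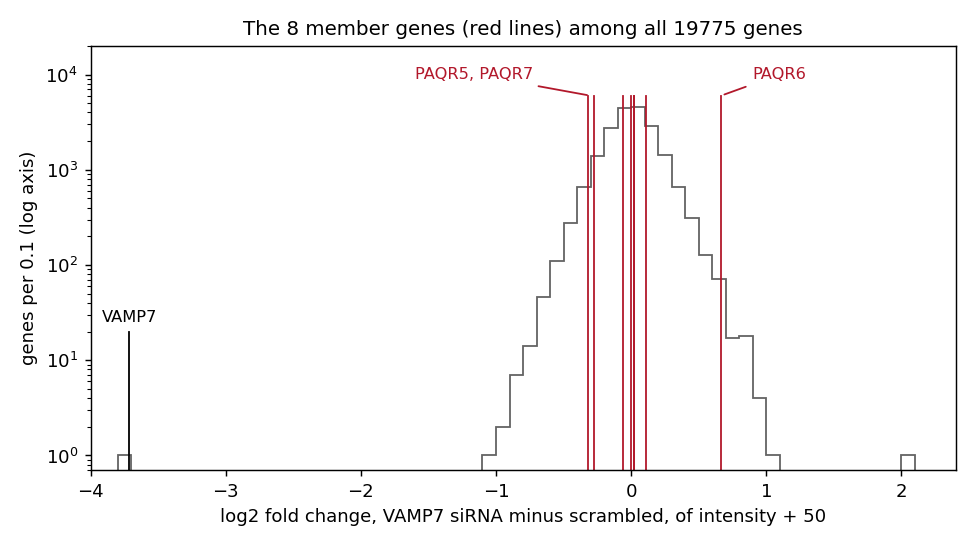
Number of genes (vertical log axis) in steps of 0.1 of the log2 fold change (horizontal axis, knockdown minus control, on intensity + 50) for all 19775 genes, with the 8 measured PAQR and PGRMC genes as red lines and VAMP7 as a black line. PAQR6, at 0.66, lies in the upper tail, PAQR5 and PAQR7 lie near -0.3, and the other 5 genes lie between -0.06 and 0.11.

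Among the other PAQR proteins, the adiponectin receptors ADIPOR1 and ADIPOR2 were at log2 fold changes of 0.04 (SE 0.13) and 0.09 (SE 0.09). MMD and MMD2, Golgi PAQR proteins, were at -0.12 (SE 0.09) and -0.11 (SE 0.14), and none of the 4 was called. MMD read 5287, 5444 and 5676 in knockdown, against 5879, 5699 and 6226 in control, all of the knockdown arrays being lower by a small amount. Among 5 MAPR and cytochrome b5 relatives, also with 0 called, NENF, the secreted MAPR protein neudesin, had the largest difference. It read 1118, 1123 and 1322 in knockdown, against 1360, 1541 and 1597 in control, without overlap (log2 fold change -0.32, SE 0.11, adjusted p = 0.721 in limma). CYB5D2, CYB5A, CYB5B and CYB5R3 lay between -0.13 and 0.12.

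Of 82 listed pathway genes 71 were measured, of which limma called 0 higher and 0 lower, where it called 0.00506% of all genes. At an unadjusted p under 0.05, 2 were higher and 2 lower, and of all genes 3.63% were higher and 3.03% lower. Groups did not overlap for 2 of the 71 that were higher and 7 that were lower, and for 6.68% and 6.29% of all genes. The median log2 fold change of the 71 was -0.02, with 33 above 0 and 38 below. In the list of G proteins and cyclic AMP signalling (16 of 16 measured, 8 above 0, median 0.0047), GNAO1, an inhibitory G protein subunit of neural tissue, read 1176, 1148 and 603 in knockdown, against 553, 608 and 662 in control. Knockdown replicate 3 lay within the control range and the other 2 knockdown arrays well above it (log2 fold change 0.59, SE 0.25, adjusted p = 0.745 in limma). GNAI1, another inhibitory subunit, was at -0.33 (SE 0.20), with knockdown replicate 1 the lowest at 1007.5 and the other knockdown arrays just below the control range. In the list of PAQR3 partners and kinases (11 of 15 measured, 6 above 0, median 0.01), MAPK3, the kinase ERK1, read 538.8 ± 42.4 in knockdown and 441 ± 21.2 in control (SD, n = 3; 0.26, SE 0.10, adjusted p = 0.728 in limma). MAP2K2, a kinase upstream of it, was at 0.21 (SE 0.12).

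In the list of PGRMC partners, haem and P450 genes (11 of 15 measured, 7 above 0, median 0.06), the receptor kinase EGFR read 170.4 ± 10.6 in knockdown and 228 ± 34.1 in control (SD, n = 3; log2 fold change -0.33, SE 0.12, adjusted p = 0.726 in limma). SCAP, the sterol sensor that PAQR3 also binds, was at 0.17 (SE 0.11). Of the ceramidase and sphingolipid list (12 of 14 measured, 3 above 0, median -0.07), the alkaline ceramidase ACER3, whose superfamily includes the PAQR proteins, was at -0.18 (SE 0.10) and the sphingomyelinase SMPD1 at -0.32 (SE 0.17). The progesterone list (14 of 15 measured, 6 above 0, median -0.05) held mostly dim genes, 10 of the 14. Its members of smallest p, CYP17A1 of steroid synthesis and the mineralocorticoid receptor NR3C2, were at 0.41 (SE 0.21) and -0.47 (SE 0.27), both dim. The nuclear progesterone receptor PGR read 284, 229 and 218 in knockdown, against 243, 195 and 196 in control, with overlap (0.17, SE 0.13, adjusted p = 0.848 in limma).

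The genes whose pattern over the 6 arrays was most like that of PAQR6 were sought among 9566 protein-coding genes at or above the median signal. By Pearson's r on the log2 values these were GSDMB (r = 0.998), a gasdermin of membrane pores, ST3GAL2 (0.991), a sialyltransferase, EHBP1 (0.985), an endocytic adaptor, ME3 (0.984), a mitochondrial malic enzyme, and SAT1 (0.978), which acetylates polyamines. These are the highest of all those values over 6 arrays, which share the group difference, so they are a description. GSDMB read 243, 284 and 264 in knockdown, against 176, 203 and 189 in control. For all 5 genes the knockdown arrays lay above the control arrays, with log2 fold changes from 0.22 for EHBP1 and SAT1 to 0.45 for ME3, all smaller than that of PAQR6.

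Markers of other cell types were read beside these values. Of 6 endothelial markers, 4 had log2 fold changes above 0, and the median of the list was 0.26. VWF and ESAM lay higher without overlap, as 6.68% of all genes did. PECAM1 and KDR were at 0.34 and 0.18 with overlap, and CDH5 and TEK at -0.05 and -0.06. ESAM was dim, at 14.8, 15.0 and 3.16 in control, and read above the array median on only 2 arrays. The summed intensity of the 6 markers ran from 3980 to 4545 in knockdown and from 3520 to 3725 in control, without overlap. Over the 6 arrays ESAM read 3.16 to 77.4, PECAM1 59.98 to 149 and CDH5 19.1 to 59.8. All 5 measured leukocyte markers, 3 of 5 neuronal, 3 of 6 fibroblast and 4 of 8 pluripotent markers had log2 fold changes above 0. Among them CSF1R (leukocyte) and SYP (neuronal), both dim, were higher without overlap and LUM (fibroblast), also dim, was lower. The summed intensities of these 4 lists overlapped between the groups. NANOG, a pluripotency factor, read 3968 ± 328 in knockdown and 4839 ± 457 in control (SD, n = 3; adjusted p = 0.742 in limma). It was lower without overlap, as 6.29% of all genes were. The other measured pluripotency markers overlapped between the groups, from SOX2 at 0.22 to PODXL at -0.12. The part of these markers in the PAQR6 and PAQR5 differences was not tested, and in RNA from whole cultures fewer cells of a kind and less RNA per cell cannot be told apart.

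**Figure D4:**
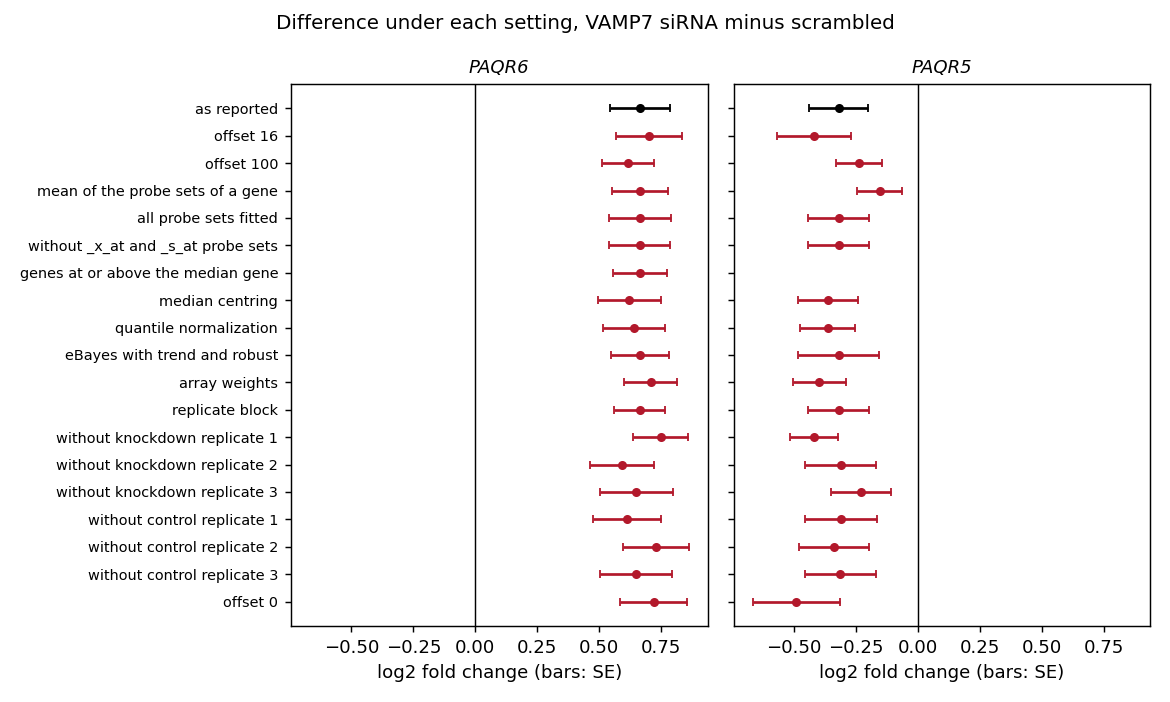
Log2 fold change (horizontal axes, knockdown minus control, bars are SE) of PAQR6 and PAQR5 as reported (black) and under each other setting (red). PAQR6 stays between 0.59 and 0.75 and PAQR5 between -0.49 and -0.15, with no PAQR5 value among genes at or above the median gene, since it lies below that signal.

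The log2 fold change of PAQR6 ran from 0.59 without knockdown replicate 2 to 0.75 without knockdown replicate 1, and that of PAQR5 from -0.42 without knockdown replicate 1 to -0.23 without knockdown replicate 3. The signs of PAQR3, PAQR4, PAQR8, PAQR9 and PGRMC2 each turned in at least 1 of the settings.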

How the data were processed

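The deposited values are linear intensities, 1 per probe set and array, which their equal trimmed means show to be scaled to a common target. Array medians ran from 58.8 to 67.5. The submitters' processing notes name RMA, per the labels, but RMA gives log2 values, and the deposited ones are linear. Background correction and software are not stated in those sources, and no detection calls were used. The number of arrays limits the precision. Here log2(intensity + 50) was taken and fitted with limma 3.58.1 (R 4.3.3, lmFit and eBayes) on 1 probe set per gene, the one of highest mean among the 41091 naming 1 gene, with Benjamini-Hochberg adjustment over 19775 genes and a threshold of 0.05. Symbols were updated through RefSeq identifiers (99.87% matched). Member probe sets were also fitted among all 54613 that are not array controls. The members and lists were chosen with earlier results of these data known. Genes named are VAMP7, all members, all genes of the lists of relatives, the 2 of smallest p in each other pathway list, PGR, and the 5 most like PAQR6; neighbouring genes and some markers were chosen after their values were seen. The code was tested on simulated data. Same-numbered arrays correlated at -0.0089, 0.08 and -0.07 in their deviations from group means, and the main fit did not pair them. With 3 arrays per group these values cannot show whether same-numbered arrays shared a culture or day. The descriptions number all 3 knockdown samples 1. Alternatives covered offsets, probe set choice, scaling, fit options, a replicate block and the omission of each array.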

Additional observations from a re-analysis of the deposited data

How the results depend on the processing

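VAMP7 was called lower by limma under all 17 alternatives with a value for it (-4.10 to -3.42, adjusted p from 1.08e-07 to 0.00764), and the log2 fold change of PAQR6 ran from 0.59 to 0.75 over 18. The choice of probe sets or genes, eBayes with trend and robust, and the replicate block could not move the PAQR6 value from 0.66. PAQR6 has only 1 probe set, and these settings changed its SE alone. The 3 knockdown arrays of PAQR6 lie above its 3 control arrays on that probe set. Only median centring and quantile normalization could therefore have made the groups overlap, and neither did. None of the 8 measured PAQR and PGRMC genes and none of the pathway genes was called in any of the 18. The count of genes called higher was 1 in place of 0 at offsets of 16 and 0 and when probe sets were averaged per gene, and in none of these was it a PAQR or PGRMC gene. The count called lower was 0 without _x_at and _s_at probe sets, since VAMP7 has only an _s_at probe set. Fold changes above 0 numbered 2 of the 8 genes with median centring and 6 when probe sets were averaged per gene, against 4. Median centring moved the fold changes of all genes by the same amount. Genes whose groups did not overlap numbered 1, against 2, when probe sets were averaged per gene and among genes at or above the median gene, which leaves out PAQR5. PAQR5 was at -0.15 when its probe sets were averaged and -0.49 at an offset of 0, a setting chosen after the data had been seen. With the replicate block PAQR6 was at 0.66 (SE 0.10) and VAMP7 at -3.71 (adjusted p = 0.00661), and the block changed no call. The 3 arrays in each group limit the precision: the SE of the 8 genes ran from 0.11 to 0.22 on the log2 scale.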
